A study of Mus musculus with 2 samples.

Results

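The 8 genes described here are the H2-D1, H2-K1, H2-Q4, H2-Q6, H2-Q7, H2-T22 and H2-T23 heavy chains of mouse MHC class I and their shared light chain, B2m (beta-2 microglobulin), out of 32285 genes in the count tables. They were picked by gene symbol, with their levels in these same libraries already known, so every difference between the libraries given for them is a description and carries no test. The counts came from scRNA-Seq of the temporomandibular joint (TMJ), with 1 library from joints injected with PBS and 1 from joints injected with complete Freund's adjuvant (CFA), an oil emulsion of killed mycobacteria that inflames the joint. All mice were wild-type (WT) females of the C57BL/6 strain, labelled 8-10 weeks old, and joints were collected 3 weeks after injection of 10 microlitres, of CFA at 5 mg/mL or of PBS (n = 3 in the methods, put into 1 library per group). The digest held the condyle and disc along with nearby bone, ligament and muscle, and CD45-positive immune cells were depleted with beads before loading, so the immune cells described below are those that escaped depletion. With 1 library per condition there is no replicate check, no p-value was computed, and every interval is an exact 95% interval that covers counting error only.

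MHC class I molecules sit on the surface of almost all nucleated cells and show CD8 T cells short peptides cut from proteins inside the cell. Each molecule is a heavy chain bound to B2m, and without B2m most heavy chains do not reach the surface. H2-K1 and H2-D1 encode the classical, highly polymorphic chains, whereas the H2-Q and H2-T genes encode nonclassical chains, among them H2-T23 (Qa-1), which is recognised by inhibitory receptors of NK cells, and H2-Q7 (Qa-2). Interferons raise the transcription of class I genes through promoter elements that bind interferon regulatory factors, NF-kappa B and the NLRC5 enhanceosome.

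The heavy chains lie in the H2 complex on chromosome 17 of GRCm38, and B2m lies on chromosome 2. H2-K1 is at chr17:33996017-34000347 on the minus strand, H2-D1 at chr17:35262730-35267499, H2-Q4 at chr17:35379617-35385290, H2-Q6 at chr17:35424850-35430055 and H2-Q7 at chr17:35439155-35443773 on the plus strand, and H2-T23 at chr17:36029773-36032855 and H2-T22 at chr17:36037128-36042747 on the minus strand. B2m is at chr2:122147686-122153083 on the plus strand. The promoter stretch of each gene is printed because class I promoters are known for interferon and NF-kappa B elements. All 8 stretches carry the letters of an interferon element. All but those of H2-T22 and H2-T23 also carry the letters of an NF-kappa B element. RefSeq promoters (GRCm38.p6, from 250 bases before to 50 after the annotated start) were found for all 8 genes, and the capitals mark the matches within each stretch, written 5′ to 3′ on the strand of the gene.
H2-K1, chr17:34000417-34000470: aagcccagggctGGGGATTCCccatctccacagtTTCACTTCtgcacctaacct
H2-D1, chr17:35262911-35262964: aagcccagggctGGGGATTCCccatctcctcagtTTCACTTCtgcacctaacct
H2-Q4, chr17:35379431-35379484: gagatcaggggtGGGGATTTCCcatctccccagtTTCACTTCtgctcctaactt
H2-Q6, chr17:35424665-35424718: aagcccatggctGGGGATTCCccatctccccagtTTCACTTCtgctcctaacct
H2-Q7, chr17:35439010-35439062: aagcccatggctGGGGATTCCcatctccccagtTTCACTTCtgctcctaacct
H2-T23, chr17:36032792-36032844: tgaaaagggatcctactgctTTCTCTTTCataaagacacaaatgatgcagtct
H2-T22, chr17:36042900-36042952: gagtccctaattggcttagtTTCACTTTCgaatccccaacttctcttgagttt
B2m, chr2:122147530-122147582: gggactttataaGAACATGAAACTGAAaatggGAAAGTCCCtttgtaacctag

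The capitals are the interferon response element core, searched as GAANNGAA and GAANNNGAA, and the kappa B-like motif, searched as GGGNNTTCC and GGGNNTTTC, on both strands. Over 32851 promoters of the same length, GAANNGAA occurred in 20.1%, GAANNNGAA in 21.5%, GGGNNTTCC in 5.82% and GGGNNTTTC in 4.36%. An interferon element core within 30 bases of a kappa B-like motif was present in the promoters of H2-K1, H2-D1, H2-Q4, H2-Q6, H2-Q7 and B2m, and in 1.33% of all promoters. In H2-T22 and H2-T23 the interferon element core stood without a kappa B-like motif near it. A match is a description of letters and not a bound site. The genes are near copies of each other, and reads of 3′ libraries come from the last exon. Of 90-base windows in the last 500 bases of the annotated transcripts, 0% were shared with another gene for H2-D1 and B2m and 0.221% for H2-K1, against 4.73% for H2-Q7, 9.49% for H2-Q4, 13.4% for H2-T23, 26.4% for H2-T22 (shared with H2-T10) and 26.9% for H2-Q6 (with H2-Q7 among the genes it shares them with). Values for H2-Q4, H2-Q6, H2-Q7, H2-T22 and H2-T23 are therefore uncertain as to which gene the UMIs came from.

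The deposited libraries held 7671 PBS and 5709 CFA barcodes, with 51146169 and 53517206 UMIs in all. Barcodes with at least 500 genes, at most 10% mitochondrial UMIs and at most 1% hemoglobin UMIs were kept as cells, which left 2667 PBS and 4014 CFA cells at a median of 7022 and 6509.5 UMIs. The hemoglobin limit removed 3178 PBS barcodes and 339 CFA barcodes, so red cell RNA was more abundant in the PBS library. The libraries shared 10 barcode sequences, 2 of them among the cells. Named classes with at least 20 cells in each library numbered 11 and held 87.4% of PBS and 81.0% of CFA cells. All are called "-like" since the names rest on rebuilt clusters and fixed markers. The 8 endothelial markers, for example, summed to 8556 CPM in PBS and 8007 CPM in CFA in endothelial-like cells, and to 185 and 20.2 CPM in fibroblast-like cells.

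Levels are given in CPM, the usual scaling of the UMIs of a gene by all UMIs of the class in that library. The class I genes were higher in CFA in most pairs of gene and class. Of 88 pairs of 8 genes and 11 classes, the CFA level was the higher in 84, its ratio to the PBS level had an interval above 1 in 79, and the ratio was at least 2 in 69. Of all genes that passed a filter of a mean of at least 20 CPM over both libraries, between 1.55% and 8.3% per class were at least 2-fold higher in CFA. These shares are given for each class below. The 88 pairs were not filtered in this way, so the 69 and these shares rest on unlike sets. A gene with few PBS UMIs can pass the filter only through its CFA level, and its count as 2-fold higher is then fixed in advance. The interval lay below 1 in 1 pair, H2-K1 in osteoblast-like cells. The 7 heavy chains summed were at least 2 times as high in CFA in 9 of 11 classes, with a median ratio of 2.94. The classes left out of that count were B cell-like and osteoblast-like cells.

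**Figure D1:**
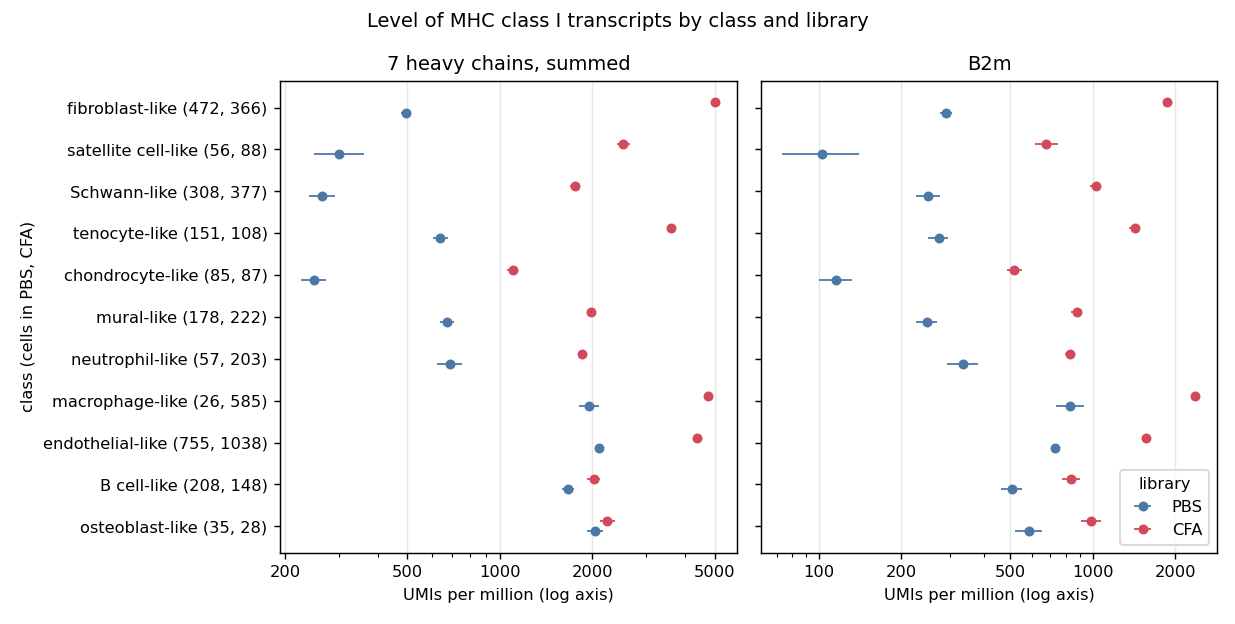
Level of the 7 summed heavy chains (left) and of B2m (right) in CPM, on log axes, for each class in the PBS (blue) and CFA (red) library, with exact 95% Poisson intervals as bars and cell numbers beside each class. CFA lies to the right of PBS in all 11 classes. For the heavy chains the gap is widest in fibroblast-like cells (496 and 4998 CPM) and narrowest in osteoblast-like cells (2041 and 2233 CPM), and for B2m it is widest in satellite cell-like cells (103 and 677 CPM) and narrowest in B cell-like cells (506 and 833 CPM).

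In the PBS library the summed heavy chains fell into a high and a low group of classes. Endothelial-like cells (2105 CPM), osteoblast-like cells (2041 CPM) and macrophage-like cells (1947 CPM) were highest, and neighbours in that order had overlapping intervals. B cell-like cells followed at 1665 CPM. The other 7 classes lay between 248 CPM in chondrocyte-like cells and 686 CPM in neutrophil-like cells, and satellite cell-, Schwann- and chondrocyte-like cells at the low end (300, 264 and 248 CPM) had overlapping intervals. In the CFA library the order changed. Fibroblast-like cells were highest at 4998 CPM, then macrophage-like cells at 4767 CPM, endothelial-like cells at 4376 CPM and tenocyte-like cells at 3603 CPM, and the intervals of these 4 neighbours did not overlap. Chondrocyte-like cells stayed lowest at 1100 CPM.

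B2m, the light chain, followed a like order in PBS, from 829 CPM in macrophage-like and 728 CPM in endothelial-like cells to 115 CPM in chondrocyte-like and 103 CPM in satellite cell-like cells. In CFA it ranged from 518 CPM in chondrocyte-like to 2371 CPM in macrophage-like cells. Its level was higher in CFA in all 11 classes and at least 2 times as high in 9 of them, with a median ratio of 3.53. The B2m ratio was largest in satellite cell-like cells (6.60, 4.74 to 9.41) and smallest in B cell-like cells (1.65, 1.47 to 1.85).

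Gene by gene, the chains differed in where they were high. H2-D1 ranged from 95.5 CPM in Schwann-like to 890 CPM in macrophage-like cells in PBS, and from 499 CPM in chondrocyte-like to 1999 CPM in fibroblast-like cells in CFA, with the interval of its ratio above 1 in all 11 classes. H2-K1 ranged from 92.4 CPM in chondrocyte-like to 1087 CPM in osteoblast-like cells in PBS, and from 451 CPM in chondrocyte-like to 2526 CPM in macrophage-like cells in CFA. For both classical chains the class with the highest level differed between the libraries. H2-Q4, H2-Q6 and H2-Q7 were highest in B cell-like cells in PBS (65.6, 83.9 and 109 CPM) and in endothelial-like cells in CFA (159.6, 158 and 347 CPM). H2-Q6 and H2-Q7 were at least 2 times as high in CFA in 10 of 11 classes each, and in B cell-like cells they were at 1.57 and 1.84 times. Their median ratios were 8.48 for H2-Q6 and 9.76 for H2-Q7. The PBS count of H2-Q6 was 0 in 3 classes, where 3 UMIs were put in its place. H2-T22 and H2-T23, which lie next to each other, were highest in endothelial-like cells in PBS (69.8 and 53.3 CPM). In CFA, H2-T22 was highest in fibroblast-like cells (179.7 CPM) and H2-T23 in endothelial-like cells (103 CPM). Their median ratios were 3.37 and 3.76, and the interval lay above 1 in 10 and 9 classes.

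Fibroblast-like cells, the matrix-producing cells of the joint's soft tissue, had the largest difference of the 11 classes in the summed heavy chains. These were at 496 CPM in 472 PBS cells and at 4998 CPM in 366 CFA cells, a ratio of 10.1 (9.68 to 10.5). H2-K1 was at 219 CPM in PBS and 2304 CPM in CFA, a ratio of 10.5 (9.92 to 11.2). H2-D1 was at 210 CPM and 1999 CPM, a ratio of 9.52 (8.95 to 10.1). The classical chains thus differed by a like factor. B2m was at 292 CPM in PBS and 1866 CPM in CFA, a ratio of 6.39 (6.06 to 6.74). The heavy chains counted 1.70 UMIs per B2m UMI in PBS and 2.68 in CFA.

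Among the nonclassical chains of fibroblast-like cells, the largest ratios belonged to H2-Q7 and H2-Q6, which were nearly absent in PBS. H2-Q7 had 11 UMIs (2.05 CPM) in PBS and 1157 UMIs (213 CPM) in CFA, a ratio of 104 (57.8 to 209). H2-Q6 had 9 UMIs (1.67 CPM) and 645 UMIs (119 CPM), a ratio of 70.8 (37.1 to 156). The few PBS UMIs leave both ratios wide. H2-Q4 was at 14.7 and 90.03 CPM (ratio 6.12, 4.82 to 7.87), H2-T22 at 30.5 and 179.7 CPM (ratio 5.89, 4.99 to 6.99) and H2-T23 at 18.2 and 94.1 CPM (ratio 5.16, 4.15 to 6.47). All 8 genes passed the level filter (a mean of at least 20 CPM over both libraries) and all 8 were at least 2 times as high in CFA, where 4.29% of the 6875 genes that passed were. H2-Q6 and H2-Q7 passed only through their CFA level, so their part in that count was fixed in advance.

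Endothelial-like cells line the vessels and were the largest class. Their summed heavy chains were at 2105 CPM in 755 PBS cells and at 4376 CPM in 1038 CFA cells, a ratio of 2.08 (2.04 to 2.12). H2-K1 was at 1075 and 2077 CPM (ratio 1.93, 1.87 to 1.99) and H2-D1 at 760.6 and 1357 CPM (ratio 1.78, 1.72 to 1.85). B2m was at 728 and 1565 CPM (ratio 2.15, 2.08 to 2.23). The classical chains were therefore already abundant in the PBS library, and the CFA library held close to 2 times as much. H2-Q7 was at 53.3 and 347 CPM (ratio 6.52, 5.79 to 7.36) and H2-Q6 at 29.7 and 158 CPM (ratio 5.33, 4.54 to 6.29), the largest ratios of the class. H2-Q4 (ratio 2.52), H2-T22 (ratio 2.50) and H2-T23 (ratio 1.93) differed less. Of the 8 genes, all of which passed the level filter, 5 were at least 2 times as high in CFA, against 2.67% of all genes tested.

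**Figure D2:**
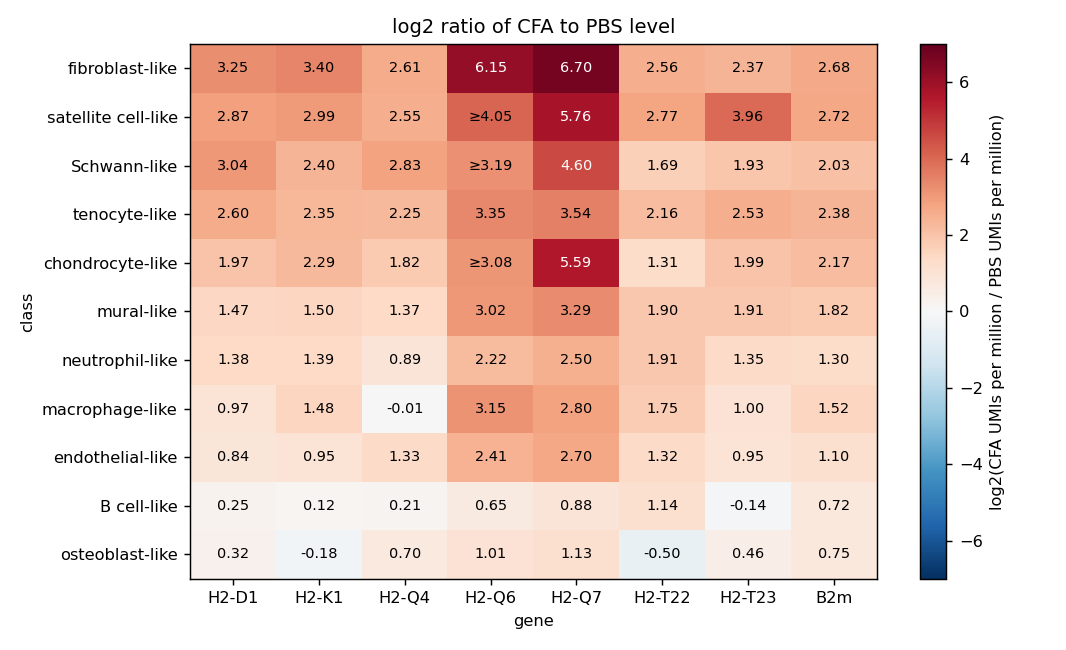
log2 ratio of the CFA to the PBS level of each gene (columns) in each class (rows), red for higher in CFA, with the value in each cell and ≥ where the PBS library held 0 UMIs and 3 UMIs were put in their place. The ≥ marks that replacement and is not the lower end of an interval. The H2-Q6 and H2-Q7 columns hold the largest values (up to 6.70 in fibroblast-like cells), and the osteoblast-like and B cell-like rows lie nearest 0.

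Schwann-like cells, the glia of peripheral nerve, had low levels in PBS. Their summed heavy chains were at 264 CPM in PBS and 1753 CPM in CFA, a ratio of 6.63 (5.98 to 7.37), and B2m was at 250.8 and 1025 CPM, a ratio of 4.09 (3.66 to 4.57). H2-D1 was at 95.5 and 785 CPM (ratio 8.22) and H2-K1 at 136 and 720 CPM (ratio 5.27), and the H2-D1 ratio was the larger. H2-Q6 had 0 UMIs in PBS and 33 in CFA, a ratio of 9.12 with 3 UMIs put in place of the 0. Here 6 genes passed the level filter and 6 were at least 2 times as high in CFA (background 4.68%). Of these, H2-Q4, H2-Q7 and H2-T22 passed only through their CFA level, so their part in that count was fixed in advance.

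Tenocyte-like cells, the cells of tendon and ligament, had 640 CPM in PBS and 3603 CPM in CFA (ratio 5.63, 5.29 to 5.99), and all 8 genes were at least 2 times as high (background 2.85%). Satellite cell-like cells, the stem cells of muscle, had 114 heavy-chain UMIs in 56 PBS cells and 1543 in 88 CFA cells, or 300 and 2523 CPM (ratio 8.41, 6.95 to 10.3), again with all 8 genes at least 2 times as high (background 7.67%). Chondrocyte-like cells had 248 and 1100 CPM (ratio 4.44, 4.00 to 4.93), with 5 of the 5 genes tested at least 2 times as high (background 2.65%). Mural-like cells, which wrap vessels, had 672 and 1978 CPM (ratio 2.94, 2.77 to 3.13), with 7 of 7 (background 1.55%). In each of these classes at least H2-Q7 passed the level filter only through its CFA level, which fixed its count in advance. In satellite cell-like cells this also held for H2-Q6, H2-T22 and H2-T23. It held as well for H2-Q6 and H2-T23 in tenocyte-like cells and for H2-T23 in mural-like cells. H2-Q6 had 0 PBS UMIs in chondrocyte-like and satellite cell-like cells too. With 3 UMIs put in place of the 0, its ratios there were 8.48 and 16.6.

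Among immune cells, neutrophil-like cells had 686 CPM in PBS and 1846 CPM in CFA (ratio 2.69, 2.45 to 2.97), with 6 of the 6 genes tested at least 2 times as high (background 6.37%). Of these, H2-Q7 and H2-T22 passed the level filter only through their CFA level, which fixed their count in advance. Macrophage-like cells had 1947 CPM in only 26 PBS cells and 4767 CPM in 585 CFA cells (ratio 2.45, 2.27 to 2.65), with 6 of 8 genes at least 2 times as high (background 8.3%). In macrophage-like cells H2-Q6 passed the filter only through its CFA level, so its count was fixed in advance. The CFA cells of that class were another mixture than the PBS cells. Of the PBS cells, 25 fell in a subcluster led by Mrc1 and Slc9a9 that met the monocyte markers, together with 298 CFA cells, whereas 287 CFA cells and 1 PBS cell formed a subcluster led by Mmp12 and Spp1 that met the osteoclast-like macrophage markers. The 8 neutrophil markers summed to 21510 CPM in the PBS cells of this class and to 4093 CPM in the CFA cells, and the 7 macrophage markers to 8995 and 3130 CPM. What part these mixtures have in the ratio was not tested. Within the first subcluster the ratio was 2.62 (2.42 to 2.83). The median log2 ratio of all genes in macrophage-like cells was -0.34, so that of genes past 2-fold 31.1% were the higher in CFA as counted and 54.7% after that median was set to 0. Over the 11 classes the median of all genes lay within 0.1 of 0 in the other 10.

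B cell-like cells, which carry the markers of B-lineage cells, had 1665 CPM in PBS and 2021 CPM in CFA (ratio 1.21, 1.13 to 1.30), and B2m was at 506 and 833 CPM (ratio 1.65, 1.47 to 1.85). Here 1 of 8 genes, H2-T22, was at least 2 times as high in CFA (ratio 2.21, 1.39 to 3.56), beside a background of 2.07%. H2-K1 was at 828 and 902 CPM with an interval that held 1 (ratio 1.09, 0.985 to 1.21). Osteoblast-like cells had 2041 CPM in 35 PBS cells and 2233 CPM in 28 CFA cells (ratio 1.09, 1.01 to 1.19). Of their 8 genes, 2, H2-Q6 and H2-Q7, were at least 2 times as high (background 4.65%). Their H2-K1 level was 1087 CPM in PBS and 959 CPM in CFA (ratio 0.882, 0.782 to 0.994), and their H2-D1 level 747 and 935 CPM (ratio 1.25, 1.10 to 1.43). H2-T22 had 24 PBS and 18 CFA UMIs there, with an interval that held 1 (ratio 0.709, 0.362 to 1.36).

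The makeup of the heavy-chain UMIs differed between the libraries. H2-K1 and H2-D1 together supplied between 75.4% and 92.1% of them in each class and library, and H2-Q6 with H2-Q7 supplied a larger share in CFA than in PBS in all 11 classes. In endothelial-like cells the H2-Q6 and H2-Q7 share was 3.94% (3.61 to 4.30) of 12403 heavy-chain UMIs in PBS and 11.6% (11.2 to 11.9) of 30062 in CFA. In fibroblast-like cells it was 0.750% (0.459 to 1.16) and 6.62% (6.33 to 6.93). B cell-like cells had the largest share in each library, 11.6% (10.1 to 13.2) in PBS and 16.4% (14.7 to 18.4) in CFA. The pair is summed here because windows of the H2-Q6 3′ end also occur in H2-Q7 transcripts.

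**Figure D3:**
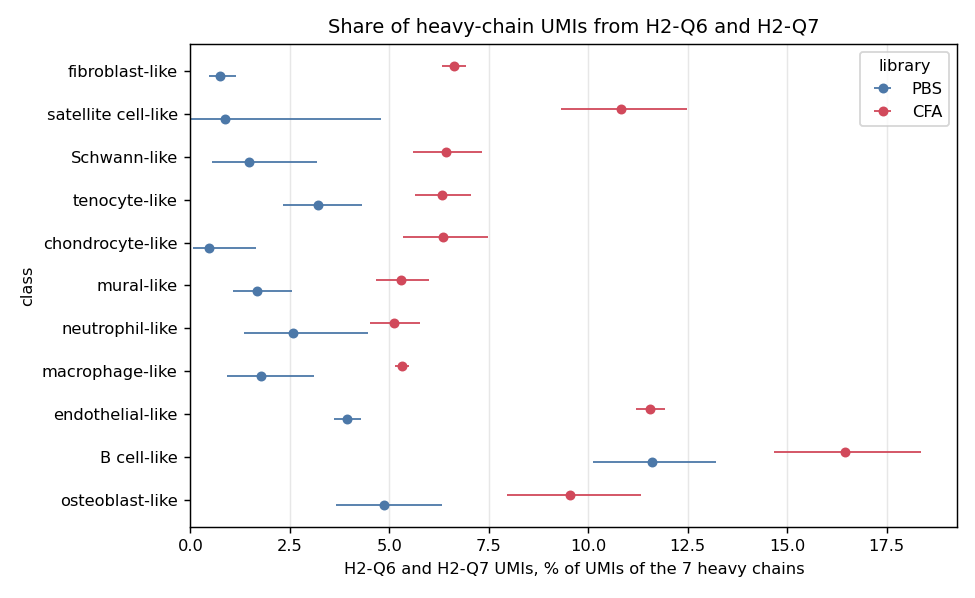
H2-Q6 and H2-Q7 UMIs as a percentage of the UMIs of the 7 heavy chains in each class, in PBS (blue) and CFA (red), with exact 95% binomial intervals as bars. The CFA point lies to the right of the PBS point in each class, from 0.750% to 6.62% in fibroblast-like cells and from 11.6% to 16.4% in B cell-like cells.

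At the level of cells, UMIs of each cell were thinned to 1000 so that depth was equal. In fibroblast-like cells a heavy-chain UMI was found in 34.2% (29.9 to 38.7) of 468 PBS cells and 85.8% (81.7 to 89.2) of 358 CFA cells, and as counted in 90.04% and 98.1%. The upper tail differed as well, with 66.8% of CFA cells and 8.76% of PBS cells above the 90th percentile of PBS cells. In endothelial-like cells the thinned shares were 78.7% of 743 PBS cells and 92.96% of 1037 CFA cells, with medians of 2 and 3 UMIs per cell. B2m was found in 23.3% (19.5 to 27.4) of PBS and 69.3% (64.2 to 74.0) of CFA fibroblast-like cells, and in 49.9% and 74.7% of endothelial-like cells. In Schwann-like cells a heavy-chain UMI was found in 17.7% (13.5 to 22.5) of PBS and 58.2% (53.0 to 63.4) of CFA cells. No class is known to lack class I, so barcodes with over 50% hemoglobin UMIs served as a low comparison. In these, after the same thinning, 13.8% (10.2 to 18.1) of 312 PBS and 21.1% (15.5 to 27.5) of 190 CFA barcodes held a heavy-chain UMI. The PBS shares of Schwann-like, chondrocyte-like (15.5%) and satellite cell-like cells (21.4%) had intervals that overlapped that of these barcodes, whose thinned UMIs were mostly hemoglobin. In CPM of their UMIs other than hemoglobin, these barcodes held 534 (488 to 583) heavy-chain UMIs in PBS and 836 (760 to 917) in CFA. The PBS levels of fibroblast-like, satellite cell-like, Schwann-like and chondrocyte-like cells (248 to 496 CPM) lay at or below 534, so this comparison does not set them above these barcodes. Such barcodes may hold class I RNA of their own, and what part of these levels is free RNA was not tested. The heavy-chain CFA levels of all 11 classes lay above 836. For B2m these barcodes held 364 in PBS and 764 in CFA. The PBS levels of B2m in fibroblast-, Schwann-, mural-, neutrophil-, tenocyte-, chondrocyte- and satellite cell-like cells (103 to 335 CPM) lay below 364, and the CFA levels in satellite cell-like (677 CPM) and chondrocyte-like cells (518 CPM) lay below 764. H2-T23 was at 87.2 in these barcodes in PBS, above its level in all 11 classes (at most 53.3 CPM), and at 84.9 in CFA, above its level in all but endothelial-, fibroblast- and macrophage-like cells.

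**Figure D4:**
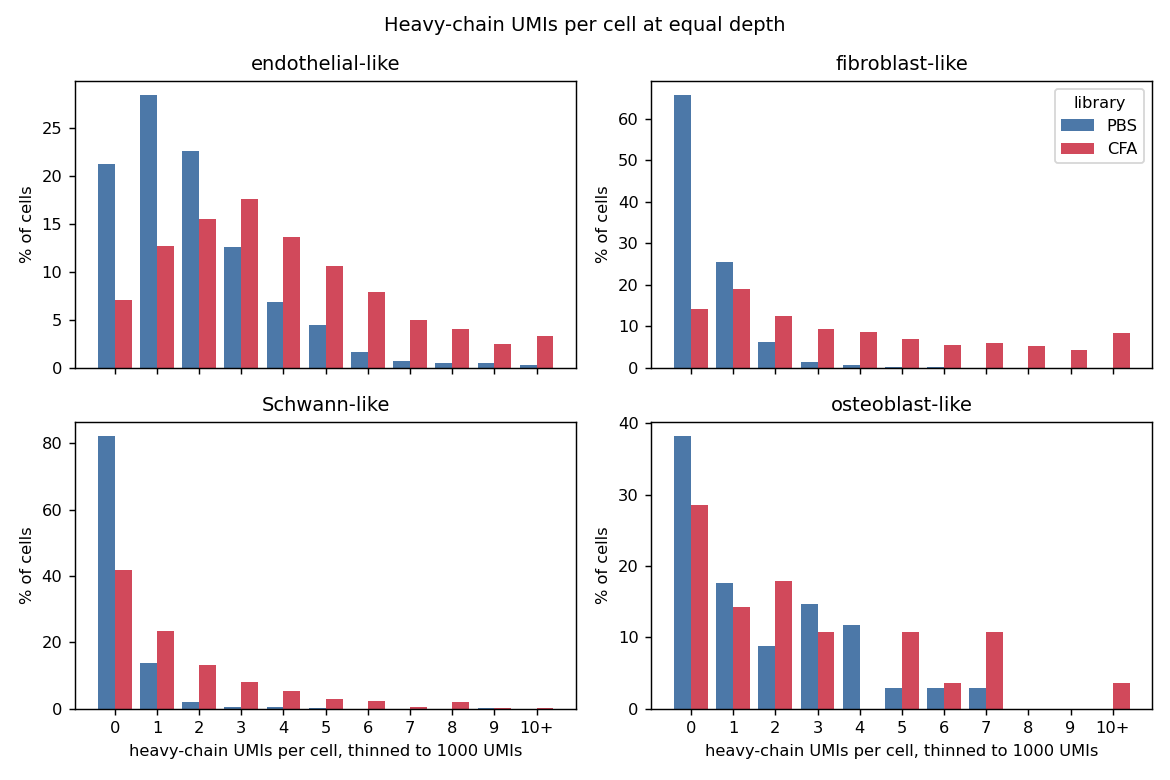
Percentage of cells by heavy-chain UMIs per cell after each cell was thinned to 1000 UMIs, in PBS (blue) and CFA (red), for 4 classes. In fibroblast-like cells the bar at 0 UMIs shrinks and a long tail appears in CFA (85.8% of cells with a UMI against 34.2%), while endothelial-like cells shift as a whole. Osteoblast-like cells (34 PBS, 28 CFA) overlap, with means of 1.79 and 2.68 UMIs. Of these, 8.82% (1.86 to 23.7) of PBS and 28.6% (13.2 to 48.7) of CFA cells lay above the 90th percentile of PBS cells.

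Within endothelial-like cells, the difference was present in each subcluster. Plvap venular endothelial-like cells had 2180 CPM of heavy chains in PBS and 5233 CPM in CFA (ratio 2.40, 2.31 to 2.49), and arterial endothelial-like cells had 2577 and 4612 CPM (ratio 1.79, 1.71 to 1.88). The Car4 capillary endothelial-like subclusters had ratios of 1.79 and 1.996. Within fibroblast-like cells, Pi16 fibroblast-like cells had 536 and 6238 CPM (ratio 11.6, 10.9 to 12.4). An unnamed subcluster led by Gdf10 and Apoe had 592 and 3202 CPM (ratio 5.40, 5.03 to 5.81), and one led by Comp and Fmod had 394 and 4279 CPM (ratio 10.8, 9.99 to 11.8). The fibroblast-like total therefore also depends on which subclusters each library held. A cluster led by Prg4 and Htra4, with 30 PBS but 7 CFA cells and so outside the classes compared, had 489 CPM in PBS and 11264 CPM in CFA.

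The marker lists of macrophages, monocytes and T or NK cells summed to more in CFA than in PBS within endothelial-like and fibroblast-like cells, whereas neutrophil markers were higher in CFA in endothelial-like and lower in fibroblast-like cells. The 7 macrophage markers summed to 6.70 CPM in PBS and 47.4 CPM in CFA in fibroblast-like cells, with 6 of 7 higher in CFA, and to 24.4 and 42.2 CPM in endothelial-like cells, with 5 of 7 higher. In macrophage-like cells of CFA they summed to 3130 CPM. Across the classes other than macrophage- and neutrophil-like cells they ranged from 0 to 24.4 CPM in PBS and from 18.1 to 50.7 CPM in CFA. In PBS, Adgre1 was at 0 in endothelial-like and fibroblast-like cells. The 8 neutrophil markers were at 124 and 283 CPM in endothelial-like cells and at 501 and 154 CPM in fibroblast-like cells. In mural-like cells they were at 95.9 and 1236 CPM. The 6 monocyte markers were at 29.8 and 504 CPM in fibroblast-like cells, of which Plac8 alone made 16.9 and 456 CPM. The 8 T or NK cell markers summed to 1.49 and 5.14 CPM there.

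Ratios were recomputed in cells that held no UMI of chosen immune genes, a check added after the data were seen. With a first set of 9 genes (C1qa, C1qb, C1qc, Lyz2, Cd74, S100a8, S100a9, Tyrobp and Ptprc), 387 PBS and 56 CFA endothelial-like cells remained and the heavy-chain ratio was 1.57 (1.46 to 1.68), with B2m at 1.81 (1.62 to 2.03). Schwann-like cells (172 and 28 cells) gave 9.30 (7.54 to 11.5), and with 15 CFA cells left no ratio was formed in fibroblast-like cells. A second set of 5 genes (C1qa, C1qb, C1qc, Tyrobp and Ptprc) was chosen after those values were known. It leaves out Cd74, a class II gene that was itself higher in CFA, and Lyz2, S100a8 and S100a9. It kept 727 and 732 endothelial-like and 446 and 248 fibroblast-like cells, and the heavy-chain ratios were 2.04 (1.99 to 2.09) and 9.89 (9.48 to 10.3). The endothelial-like ratio thus depends on which set is used, and what part free or neighbouring immune RNA has in it was not tested further.

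The other genes of the pathway were described from lists. Peptides for class I are cut by the immunoproteasome, carried into the endoplasmic reticulum by TAP and loaded with the help of chaperones. Of 13 genes of peptide supply and loading, 12 passed the level filter in endothelial-like cells, of which 3 were at least 2 times as high in CFA and 0 at most 0.5 times. The 4 most abundant, the chaperones Pdia3 (ratio 1.11), Calr (1.22) and Tapbp (1.31) and the proteasome activator Psme1 (1.06), were near 1. In fibroblast-like cells 5 of 12 were at least 2 times as high, and Pdia3 (1.37), Calr (1.45), Psme1 (1.71) and Tapbp (1.94) were not among them. Tap1, a subunit of the TAP transporter, was at 62.6 and 163 CPM in endothelial-like cells (ratio 2.61, 2.32 to 2.94) and at 14.9 and 80.8 CPM in fibroblast-like cells (ratio 5.43, 4.27 to 6.98). Psmb8 and Psmb9, subunits of the immunoproteasome, had ratios of 1.73 and 2.23 in endothelial-like and 5.76 and 7.43 in fibroblast-like cells. In osteoblast-like cells Tap1 had 18 PBS and 11 CFA UMIs, with an interval that held 1 (ratio 0.577, 0.246 to 1.29). Of all genes tested, 2.67% in endothelial-like and 4.29% in fibroblast-like cells were at least 2 times as high in CFA. The lower direction held 1.83% of all genes in endothelial-like and 2.24% in fibroblast-like cells.

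Regulators of class I transcription differed in both directions. Of 15 genes, 13 passed the filter in endothelial-like cells and 2 were at least 2 times as high in CFA (background 2.67%). In fibroblast-like cells 3 of 12 were (background 4.29%). Irf1, a transcription factor that binds the interferon element, was at 772 CPM in PBS and 572 CPM in CFA in endothelial-like cells (ratio 0.740, 0.709 to 0.773) and at 313 and 265 CPM in fibroblast-like cells (ratio 0.848, 0.790 to 0.910). Irf2 had ratios of 1.71 in endothelial-like and 1.38 in fibroblast-like cells, and Nfkb1 had 1.18 and 0.749. Nlrc5, the transactivator of class I genes, was named after its values were seen. It was at 33.9 and 150 CPM in endothelial-like cells (ratio 4.42, 3.80 to 5.17) and had 23 UMIs in PBS and 316 in CFA in fibroblast-like cells (ratio 13.6, 8.88 to 21.7). In osteoblast-like cells it was at 66.9 and 68.6 CPM (ratio 1.03, 0.631 to 1.67).

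**Figure D5:**
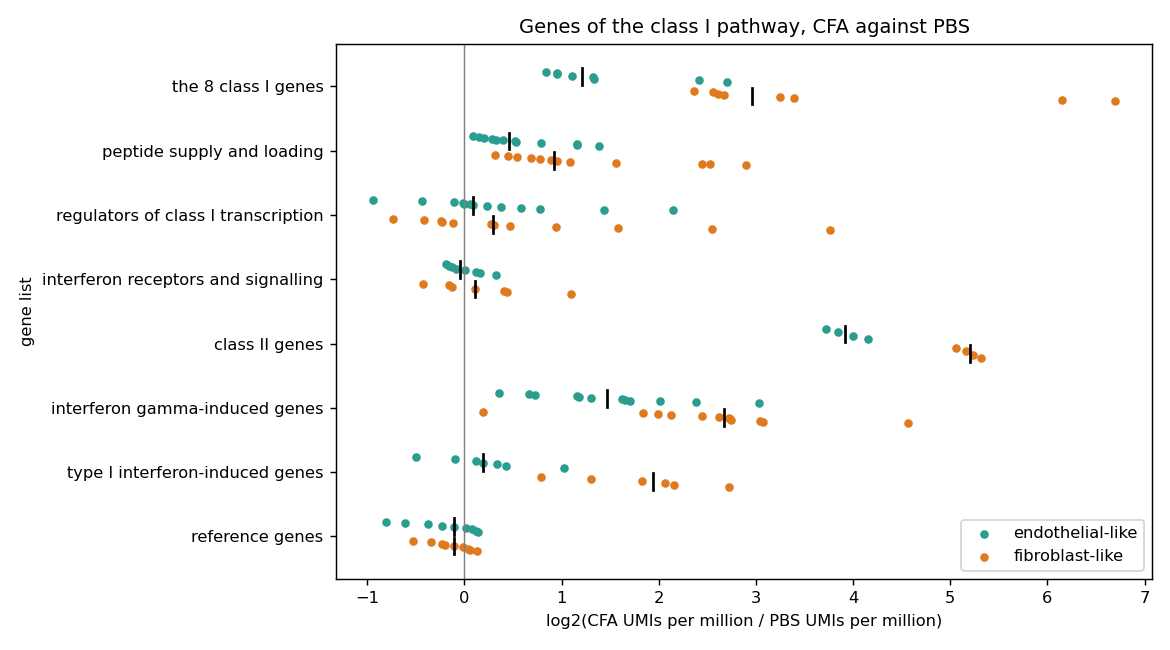
log2 ratio of the CFA to the PBS level for genes of each list that passed the level filter, in endothelial-like (green) and fibroblast-like (orange) cells, with a black bar at the median. The 8 class I genes (medians 1.21 and 2.96) and the class II genes (3.92 and 5.20) lie to the right, and the reference genes (-0.11 and -0.11) and most interferon receptors lie nearer 0.

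Most interferon receptors and signalling genes were under 2 times as high in CFA. None of the 8 that passed in endothelial-like cells was at least 2 times as high (background 2.67%). In fibroblast-like cells 1 of 7 was (background 4.29%), namely Jak2, a kinase of the interferon gamma receptor (ratio 2.13). Jak1 (ratios 0.941 and 0.745), Ifngr1 (1.09 and 0.895) and Ifnar2 (0.879 and 1.35) lay on both sides of 1. Of the interferon genes themselves, Ifng, Ifnb1, Ifna4 and Ifnl3 had 0 UMIs in endothelial-like and fibroblast-like cells of both libraries, and a count of 0 allows up to 3 UMIs. Ifng was seen elsewhere, with 0 PBS and 36 CFA UMIs in macrophage-like cells and 0 and 20 in neutrophil-like cells. It was highest in an unnamed cluster led by Siglech, Stat4 and Flt3, with 2 UMIs in PBS (3.91 CPM) and 197 in CFA (240.3 CPM). The ratio in that cluster was 61.4 (16.8 to 511). Macrophage-like cells held 345093 UMIs in all in PBS and 13523490 in CFA, so the 0 of Ifng there does not set the libraries apart. Neutrophil-like cells held 678103 and 2660206. Class II genes, which present to CD4 T cells, had 4 of 4 genes tested at least 2 times as high in each class (backgrounds 2.67% and 4.29%). Cd74 was at 42.4 and 679 CPM in endothelial-like and at 7.63 and 304 CPM in fibroblast-like cells. In the latter Cd74 passed the level filter only through its CFA level, which fixed its count in advance. Other genes of these lists with few PBS UMIs can have passed in the same way.

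Interferon gamma-induced genes had 9 of 12 at least 2 times as high in endothelial-like (background 2.67%) and 11 of 12 in fibroblast-like cells (background 4.29%). Iigp1, an immunity-related GTPase, was at 1659 and 2122 CPM (ratio 1.28) in the former and at 144 and 1185 CPM (ratio 8.26) in the latter. Gbp4 (ratios 8.17 and 23.6), Gbp2 (3.25 and 3.97) and Gbp7 (2.47 and 6.13) encode guanylate-binding proteins. Type I interferon-induced genes had 1 of 7 in endothelial-like cells and 5 of 6 in fibroblast-like cells, beside the same backgrounds. Isg15, a ubiquitin-like modifier, was at 272 and 193 CPM (ratio 0.708) in endothelial-like and at 49.5 and 207 CPM (ratio 4.19) in fibroblast-like cells. Among other class I chains, H2-M3 was at 21.2 and 47.5 CPM (ratio 2.24) and H2-T24 at 24.9 and 40.2 CPM (ratio 1.61) in endothelial-like cells. The class I-like Fcgrt, the neonatal Fc receptor, was at 185 and 86.8 CPM (ratio 0.469). None of 9 reference genes tested was at least 2 times as high in either class, with medians of -0.11 and -0.11 on the log2 scale.

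Over 22 points (11 classes in each of the 2 libraries), the genes outside the 8 whose log2(CPM + 10) was most like that of the summed heavy chains were Tap1 (Pearson r = 0.87), Psmb8 (0.85), Ifi47 (0.84), Psmb9 (0.83) and Irf2bp2 (0.82). For B2m, the first 4 were Psmb8 (0.86), Tap1 (0.86), Psmb9 (0.83) and Irf2bp2 (0.80). B2m itself had r = 0.96 with the summed heavy chains. The points share libraries and depth, and no p is given.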

How the data were processed

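scRNA-Seq was performed on 2 libraries, 1 of PBS- and 1 of CFA-injected TMJs. The authors deposited raw UMI counts per gene and barcode, made with Cell Ranger 7.0.1 on mm10 (GRCm38); the annotation release is not given in the sources used here. The labels give kit version 2 and the methods version 3.1. Seurat 5.3.0 (sctransform 0.4.2, R 4.3.3) normalized each library with SCTransform, integrated them on 3000 genes and formed clusters with resolution 1.5 from 200 principal components. The 8 genes and the listed pathway genes were left out of the genes that set the clusters. Clusters were named from fixed markers, each found in at least 25% of cells and at least 2-fold above other cells, with at least 3 per name. Scrublet marked 21 PBS and 2 CFA cells, too few to have worked, so removal of the 5% highest scores was an alternative. CPM were computed from summed counts (python 3.11.15, numpy 2.4.6, scipy 1.17.1, pandas 2.3.3), with exact Poisson, Clopper-Pearson and conditional ratio intervals, and 0 PBS UMIs were replaced by 3. UMIs of 1 library are not replicates of a condition. The naming and ratio steps were tested on simulated data. The genes and lists were chosen with earlier results of these data known. All 8 genes are named, and of each list the up to 4 genes highest in endothelial-like cells. Some genes that this rule names are not reported here.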

Additional observations from a re-analysis of the deposited data

Results flagged for a closer look

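H2-K1 in osteoblast-like cells was at 1087 CPM in PBS and 959 CPM in CFA, a ratio of 0.882 (0.782 to 0.994), whereas its interval lay above 1 in 9 classes. It stands out because the CFA level was the higher in each of the other 10 classes. H2-T22 was also lower in CFA in osteoblast-like cells and in no other class, at 0.709 (0.362 to 1.36), with an interval that held 1. The difference between classes was not tested, since each condition has 1 library. The class rests on 35 PBS and 28 CFA cells. Over 9 of the 13 alternatives the ratio ran from 0.832 to 0.984 and stayed below 1 in each, and it is not given for the others. In cells without a UMI of the 9 or the 5 immune genes, 0 and 19 CFA cells remained, under the 20 needed.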

How the results depend on the processing

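No paired analysis was possible because each condition has 1 library. Across the 13 alternatives, no summed heavy-chain or B2m ratio in endothelial-like or fibroblast-like cells turned direction. In fibroblast-like cells the heavy-chain ratio of 10.1 became 10.6 without a hemoglobin limit, with at least 1000 genes per cell or without the 5% highest doublet scores, 8.84 with log-normalized counts, 8.42 with each cell classed on its own and 8.35 as a mean over cells. Its B2m ratio of 6.39 became 6.81 without a hemoglobin limit, 6.91 with at least 1000 genes, 5.88 with each cell classed on its own and 5.64 as a mean over cells. In endothelial-like cells the heavy-chain ratio of 2.08 became 2.02 when scaled by the median ratio of genes and 1.95 as a mean over cells, and the B2m ratio of 2.15 became 2.25 with each cell classed on its own and 2.04 as a mean over cells. In cells without a UMI of 9 immune genes these were 1.57 and 1.81, and 1 of the 2 classes that kept 20 cells per library was at least 2 times as high in CFA, against 9 of 11. In cells without a UMI of 5 immune genes, a set made after those values were seen, they were 2.04 and 2.11, and 7 of 8 classes were at least 2 times as high. The cause was not tested. Some ratios near 1 turned. H2-Q4 in macrophage-like cells, at 0.993, was 1.24 without a hemoglobin limit, 1.09 with at most 20% mitochondrial UMIs, 1.56 with at least 1000 genes, 1.25 scaled, 1.02 as a mean over cells and 1 without hemoglobin and mitochondrial UMIs in the totals. H2-T23 in B cell-like cells, at 0.910, was 1.17 with log-normalized counts and 1.18 with each cell classed on its own. The heavy chains of osteoblast-like cells, at 1.09, were 0.979 without the 5% highest doublet scores. Depth limits H2-Q4, H2-Q6, H2-Q7, H2-T22 and H2-T23, each with under 20 PBS UMIs in at least 4 of 11 classes.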

Other observations

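The markers left unnamed 5 clusters that also had at least 20 cells in each library. A cluster led by Fabp4, Gpihbp1 and other genes of endothelium, at a median of 1180 PBS and 1201 CFA UMIs per cell, had 1939 CPM of heavy chains in PBS and 3458 CPM in CFA (ratio 1.78, 1.57 to 2.02). One led by Prtn3, Ctsg, Mpo and Elane, granule genes of early myeloid cells, had 1088 and 1895 CPM (ratio 1.74, 1.61 to 1.89). One led by Car1, Car2 and Ermap, genes of the red cell lineage, had 790 and 2068 CPM (ratio 2.62, 2.46 to 2.79), while the median log2 ratio of all genes there was 0.20 and the median cell held 18399 PBS and 2204 CFA UMIs. One led by Siglech, Stat4 and Flt3 had 1536 and 2814 CPM (ratio 1.83, 1.69 to 1.99). One led by Dok6 and Gpc5 had 246 and 311 CPM (ratio 1.27, 1.02 to 1.59), and its H2-K1 was at 121 and 135 CPM with an interval that held 1 (ratio 1.12, 0.816 to 1.56).

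Lymphatic-like cells, with 18 PBS and 12 CFA cells and so outside the classes compared, had 1419 CPM of heavy chains in PBS and 4335 CPM in CFA. Perineurial-like cells, the sheath cells of nerve bundles, had 275 and 271 CPM in 13 and 8 cells.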
